A study of Homo sapiens with 12 samples.

Results

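N4-acetylcytidine (ac4C) peaks were described in 8 genes around the tumor suppressor p53, of 15843 protein-coding genes that could be placed with their strand. The genes were listed by name and were MDM2, MDM4, USP7, CDKN2A, PPM1D, TP53BP1, TP53BP2 and CDKN1A, and a peak belonged to one of them when its midpoint lay within the gene span on the gene's own strand. The peaks came from acetylated RNA immunoprecipitation sequencing (acRIP-seq), in which fragmented RNA is pulled down with an antibody against ac4C and sequenced, so that stretches rich in antibody-bound RNA appear as peaks. The cells were SW620, an established human colorectal cancer line. The 3 control libraries came from SW620 cells with a control shRNA (shControl) and the 3 knockdown libraries from SW620 cells with an shRNA against NAT10 (shNAT10), the acetyltransferase that writes ac4C. The labels do not say which shRNA was used in a library, nor whether the replicates of a group were separate cultures, so p-values measure only the spread between these samples, which may be technical.

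All 8 genes act on p53, bind it or are switched on by it. MDM2 is the ubiquitin ligase that marks p53 for degradation and is itself a p53 target, MDM4 is its relative that binds p53 and blocks its activity, and USP7 removes ubiquitin from both p53 and MDM2. CDKN2A makes p16, an inhibitor of cyclin-dependent kinases, and from a separate upstream start ARF, which holds MDM2 back. PPM1D is a p53-induced phosphatase that turns the p53 response off, TP53BP1 is a DNA damage response protein that binds p53, TP53BP2 is a p53-binding protein that favors apoptosis, and CDKN1A makes p21, the p53 target that arrests the cell cycle.

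In 5 of the 8 genes 1 peak region lay at a transcript start, so the sequence around those starts is shown, together with a start of MDM2 that no peak reached. Each sequence holds 30 bases on each side of a RefSeq transcript start, from 5′ to 3′ on the gene's strand (RefSeq, GRCh38.p14), with bases under a peak in capitals (all 6 libraries for MDM2 and MDM4, the 5 that listed the peak for TP53BP2 and CDKN1A).
MDM2, upstream start, chr12:68808142-68808201, plus strand: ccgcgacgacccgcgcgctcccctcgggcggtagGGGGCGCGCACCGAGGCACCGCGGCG
MDM2, downstream start, chr12:68808987-68809046, plus strand: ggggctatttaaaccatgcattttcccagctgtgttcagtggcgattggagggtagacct
MDM4, chr1:204516376-204516435, plus strand: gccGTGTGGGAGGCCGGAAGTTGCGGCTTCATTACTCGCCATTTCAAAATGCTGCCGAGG
PPM1D, chr17:60600163-60600222, plus strand, capitals for bases under a peak in all 3 knockdown libraries: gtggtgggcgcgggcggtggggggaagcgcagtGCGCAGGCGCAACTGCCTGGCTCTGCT
TP53BP2, chr1:223845918-223845977, minus strand: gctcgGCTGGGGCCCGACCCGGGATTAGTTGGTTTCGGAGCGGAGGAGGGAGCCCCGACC
CDKN1A, chr6:36678684-36678743, plus strand: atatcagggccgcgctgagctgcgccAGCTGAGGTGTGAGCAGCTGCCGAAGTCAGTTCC
The 5′ edge of the peak region came within 50 bases of a RefSeq start in 5 of the 20 peak regions of the 8 genes, 1 each in MDM2, MDM4, PPM1D, TP53BP2 and CDKN1A. Over all genes with a strand and a peak, 12.2% of 33004 regions and 39.3% of 9898 genes did so. The distance of 50 bases was chosen after the positions had been seen.

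Each peak in the authors' lists has coordinates, a strand and a score. The lists held 18241, 22619 and 20063 peaks in control and 28752, 17877 and 19047 in knockdown replicates 1, 2 and 3. The score begins at 50 and between 7.61% and 13.7% of a library's peaks share the value 3100, so it was read only as a percentile among the peaks of its own library, 100 being the highest. No read counts are listed, so depth is unknown, and fewer acetylated bases or less RNA of a gene cannot be told apart, because the 6 input samples were not used here. NAT10 itself had 1, 0 and 2 peaks in control and 2, 0 and 1 in knockdown replicates 1, 2 and 3, and peaks do not measure how far its RNA was lowered. Of 10 markers of colorectal epithelium 8 had at least 1 peak somewhere, against 2 of 7 markers of fibroblasts, blood and endothelial cells. In every library 5 of the 10 had a peak (EPCAM, KRT8, CDH1, VIL1 and CDX2), against 0 of the 7. No strand was known for 7 of the 10, EPCAM, CDH1 and VIL1 included, and for 6 of the 7. Peaks of these genes were counted on either strand.

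The control libraries held 11, 15 and 10 peaks in the 8 genes and the knockdown libraries 17, 15 and 13. The ranges of the groups overlapped, with means of 12 ± 2.65 in control and 15.0 ± 2.0 in knockdown cells (SD, n = 3). As a share of all peaks of a library, the 8 genes took 0.0588% ± 0.00834 in control and 0.0704% ± 0.0125 in knockdown cells (SD, n = 3), and the library with the most member peaks, knockdown replicate 1, was also the one with the most peaks in all. A peak was found in 6, 7 and 7 of the 8 genes in control and in 8 of 8 in every knockdown library. The control gaps were PPM1D in all 3 libraries and TP53BP2 in replicate 1, and the same count over all genes was not made. Across both groups 6 of the 8 genes had a peak in all 6 libraries, where 4906 of the 15843 genes did (31.0%). Only 9898 of the 15843 carried any peak, as all 8 members did. The share of 31.0% is therefore too low a base for the members, and the matching one is 4906 of 9898.

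PPM1D was the gene that separated the groups. It had 0 peaks in each control library and 1 peak in each knockdown library, a difference of 1.0 (exact permutation test, two-sided, p = 0.1, which is as low as 3 against 3 libraries can go, adjusted p = 1.0 over 9898 genes). It was thus 1 of 8 genes whose peak numbers did not overlap between groups with the higher number in knockdown cells, and 1.58% of all genes with a peak met that criterion. It was likewise 1 of 8 genes with a peak in all knockdown and no control libraries, against 0.394% of all genes. Both criteria count the same PPM1D peaks, and the members were listed with earlier results of these data known. These counts therefore do not measure an excess over all genes. In the opposite direction none of the 8 genes had non-overlapping numbers (0.697% of all genes) or a peak in all control and no knockdown libraries (0.374% of all genes). The lowest adjusted p over all genes was 1.0.

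**Figure D1:**
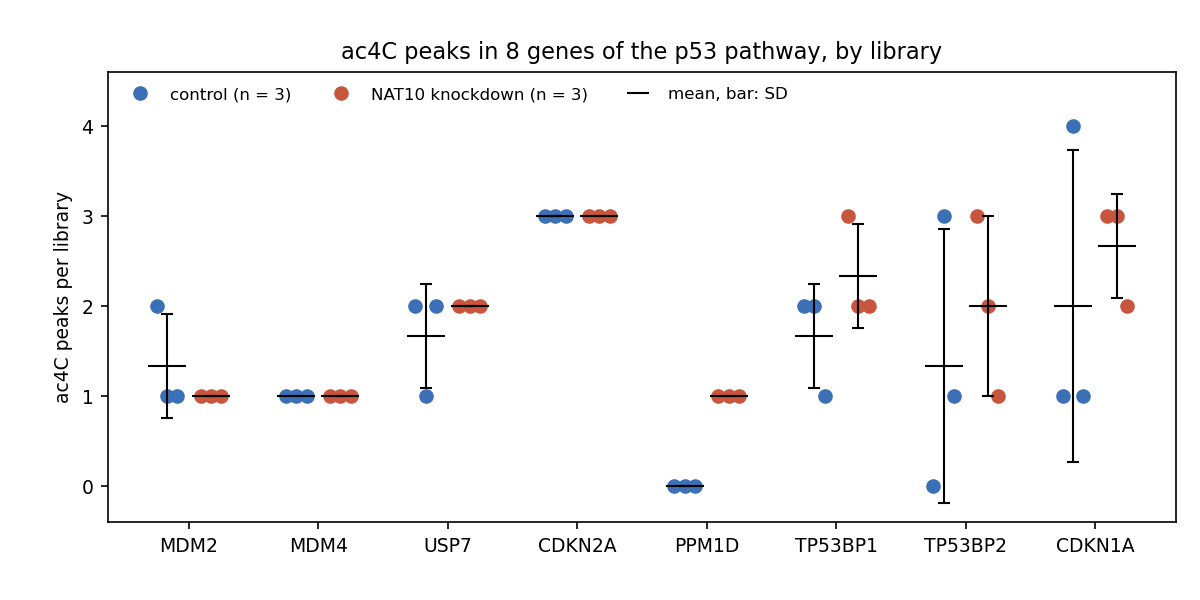
Number of ac4C peaks in each of the 8 genes (y axis, peaks per library). Each point is 1 library, blue for control (n = 3) and red for NAT10 knockdown (n = 3), with black bars for the mean and its SD; PPM1D has 0 peaks in every control and 1 in every knockdown library, MDM4 and CDKN2A have the same number in all 6, and the other genes overlap.

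The PPM1D peak region spanned chr17:60600183-60600886 on the plus strand, 704 bases from 10 bases before the start of the gene. The peak was 704 bases long in knockdown replicates 2 and 3, and in replicate 1 it began at 60600196 and was 691 bases long. All 3 ended at 60600886. Its scores were low within their libraries, at percentiles 23.4, 35.8 and 16.8 in knockdown replicates 1, 2 and 3, with scores of 131.2, 187.1 and 94.9. Among the 39 genes with a peak in all knockdown and no control libraries it ranked 24 by mean percentile (25.3 ± 9.68, SD, n = 3), and the median of those genes was 31.0. When the lists were shortened to the 17877 highest-scored peaks each, PPM1D kept its peak in knockdown replicates 2 and 3 only (p = 0.4, exact permutation test), and among the upper 50% of scores it had no peak in any library. The call on PPM1D therefore rested on peaks in the lower part of each list.

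MDM2 and MDM4, the direct inhibitors of p53, kept 1 peak at the start of the gene in all 6 libraries. MDM2 region 1, chr12:68808176-68808491 on the plus strand, began 4 bases after the first base of the gene and had identical edges in every library. Its score percentiles were 62.8, 45.6 and 58.7 in control libraries and 66.8, 54.6 and 33.1 in knockdown replicates 1, 2 and 3. The groups overlapped, at 55.7 ± 8.96 and 51.5 ± 17 (SD, n = 3; exact permutation test, p = 0.7). MDM2 also has a pair of RefSeq starts further downstream, 845 and 852 bases after the first, of which the first is printed above. The 300-base windows around both held no peak in any library. A further MDM2 peak, chr12:68850331-68850578, stood near the 3′ end of the gene in control replicate 1 alone, at percentile 5.88, so that MDM2 had 2, 1 and 1 peaks in control and 1 in each knockdown library (p = 1, exact permutation test).

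The MDM4 peak, chr1:204516379-204516509 on the plus strand, covered 131 bases from 27 bases before the annotated start and had the same edges in all 6 libraries. Its percentiles were 58.5, 9.21 and 46.4 in control libraries and 36.8, 21.6 and 34.0 in knockdown replicates 1, 2 and 3. Control replicate 2 was the lowest of the 6 and the other 2 control libraries were the highest, so the groups overlapped, with means of 38.0 ± 25.7 and 30.8 ± 8.1 (SD, n = 3; exact permutation test, p = 0.7). Without control replicate 2 the remaining control percentiles lay above all 3 of the knockdown libraries, as they did for 5.77% of 9927 regions in that setting. The highest peak of MDM4 ranked low for a gene with a peak in all 6 libraries. Of those 4906 genes, 4.55% had a lower mean of their highest percentile. That measure can rise with the number of peaks in a gene, and MDM4 had 1 in each library.

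USP7, the deubiquitinase of MDM2 and p53, had a peak at a score of 3100 in every library, a score that peaks of CDKN2A shared in 4 of the 6. Its region 1, chr16:8963207-8963484 on the minus strand and 422 bases into the gene, was that peak, so its percentiles of 92.7 to 96.0 reflect ties at that score and give no order between libraries. Region 2, chr16:8930293-8930397, lay 33509 bases into the gene and was listed in 5 libraries. Its percentiles were 56.8 and 25.1 in control replicates 1 and 3 and 73.5, 40.6 and 40.7 in knockdown replicates 1, 2 and 3, with no peak in control replicate 2. USP7 thus had 2, 1 and 2 peaks in control and 2 in each knockdown library (p = 1, exact permutation test), and the numbers overlapped.

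CDKN2A had 3 peaks in every library, the most even pattern among the genes with more than 1 peak. Region 1, chr9:21994139-21994624 on the minus strand, began 700 bases after the distal transcript start and lay upstream of the proximal start at 21974857, so of the 2 tabulated starts only the distal one, which gives ARF, has it downstream. Its percentiles were 78.8, 79.1 and 68.3 in control libraries and 92.7, 74.6 and 74.3 in knockdown replicates 1, 2 and 3. Knockdown replicate 1, the library at the 3100 score, stood above the rest and the others overlapped (75.4 ± 6.14 against 80.5 ± 10.6, SD, n = 3; exact permutation test, p = 0.6).

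Regions 2 and 3 of CDKN2A lay downstream of both starts and so cannot be given to p16 or ARF RNA. Region 2, chr9:21970716-21971208, had percentiles of 96.0, 86.8 and 78.0 in control and 92.7, 78.0 and 77.1 in knockdown replicates 1, 2 and 3 (exact permutation test, p = 0.6). Region 3, chr9:21967753-21968242, reached to within 1 base of the 3′ end of the gene and had percentiles of 86.5, 89.0 and 93.2 in control and 85.2, 87.8 and 93.2 in knockdown replicates 1, 2 and 3 (exact permutation test, p = 0.7). Both overlapped between groups. Region 3 had a different length in each library, from 336 to 490 bases, because its 3′ edge moved while its 5′ edge stayed at 21968242. The other CDKN2A regions had the same edges in all 6 libraries. CDKN2A overlaps the antisense gene CDKN2B-AS1, and how the strand of a peak was assigned is not given in the sources used here.

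TP53BP1 had 2, 2 and 1 peaks in control and 3, 2 and 2 in knockdown replicates 1, 2 and 3, and the numbers overlapped (difference 0.667, exact permutation test, p = 0.6). Its recurrent region, chr15:43492284-43492468 on the minus strand, lay 18172 bases into the gene and was listed in all 6 libraries. The percentiles there were 45.3, 74.9 and 24.4 in control libraries and 58.5, 36.1 and 40.2 in knockdown replicates 1, 2 and 3, so both the highest and the lowest value were in control libraries (exact permutation test, p = 0.8). A further region, chr15:43480895-43481022, was missing in control replicate 3 and did not exceed percentile 36.6. A neighbor of the recurrent region, chr15:43493037-43493171, appeared in knockdown replicate 1 alone, at percentile 64.4. None of the TP53BP1 peaks lay near the transcript start.

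TP53BP2 varied from library to library within both groups, with 0, 3 and 1 peaks in control and 3, 2 and 1 in knockdown replicates 1, 2 and 3 (difference 0.667, exact permutation test, p = 0.8). Its peak at the start, chr1:223845654-223845972 on the minus strand, was listed in 5 libraries, with scores of 361 and 153 in control replicates 2 and 3, and of 703, 166 and 61.3 in knockdown replicates 1, 2 and 3. These spanned percentiles 5.34 to 63.6, both ends in knockdown libraries. Each of the other 4 regions was listed in 1 or 2 libraries and none was above percentile 34.1. The ranges of the groups overlapped both in peak number and in percentile.

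CDKN1A, the classic p53 target, had 1, 4 and 1 peaks in control and 3, 3 and 2 in knockdown replicates 1, 2 and 3. Control replicate 2 had the most of all, so the numbers overlapped (difference 0.667, exact permutation test, p = 0.8), and without that library they did not, which held for 5.26% of 9542 genes in that setting in either direction. Region 1, chr6:36678710-36678939 on the plus strand, began 4 bases before a RefSeq start that lies 2251 bases inside the gene span, and was listed in 5 libraries, at percentiles 59.5 and 56.0 in control replicates 1 and 2 and 71.2, 26.9 and 44.5 in knockdown replicates 1, 2 and 3.

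Region 2 of CDKN1A, chr6:36684097-36684546, was the member region listed in control libraries whose percentiles differed most between groups. It was absent in control replicate 1 and stood at 13.5 and 6.37 in control replicates 2 and 3, against 75.6, 47.4 and 27.4 in knockdown replicates 1, 2 and 3. All 3 knockdown libraries lay above both listed control values, with scores of 1403, 303.9 and 140.8 against 77.6 and 61.9. The missing control peak kept the region out of the comparison of ranks over all 6 libraries. Region 3, towards the 3′ end at chr6:36685751-36687308, was listed in control replicate 2 as a pair of peaks and in knockdown replicates 1 and 2 as 1 peak each, at percentiles of 3.53, 26.7 and 3.32.

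Over the 20 merged regions of the 8 genes, 7 were listed in all 6 libraries (35.0%, against 22% of all 41755 regions) and 5 in 1 library. A region in all knockdown and no control libraries was found once among the 20, and 0.819% of all regions met that criterion. It was the PPM1D region, which holds the peaks already counted by gene (two-sided Fisher's exact test, p = 0.1, adjusted p = 1.0 over all regions). None of the 20 was found in all control and no knockdown libraries (0.340% of all regions). Of the 15 regions listed in at least 2 libraries, 11 had the same start and end in each library that listed them, against 60.6% of all such regions.

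Among the 7 regions listed in all 6 libraries, 0 had percentiles that did not overlap with knockdown cells higher, where 6.98% of 9195 such regions did, and 0 with control higher, where 4.05% did. The mean percentile was higher in control for 6 of the 7, against 46.3% of all such regions, and the exception was CDKN2A region 1. USP7 region 1, tied at a score of 3100 in every library, is among the 6 although its score gives no order. CDKN2A regions 2 and 3 are among the 6 as well and also held that score, region 2 in replicate 1 and region 3 in replicate 3 of both groups. A percentile at 3100 depends on how many peaks of the library share it. The median shift, knockdown minus control, was -3.25 percentile points over the 7 regions and 0.703 over all 9195, while the SD of the shift over all regions was 11.2. The lowest adjusted p over these regions was 0.669 (exact permutation test). In peak number, the median difference was 0.5 over the 8 genes and 0 over all genes with a peak, with 5 of the 8 higher on average in knockdown cells against 44.6% of all genes.

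**Figure D2:**
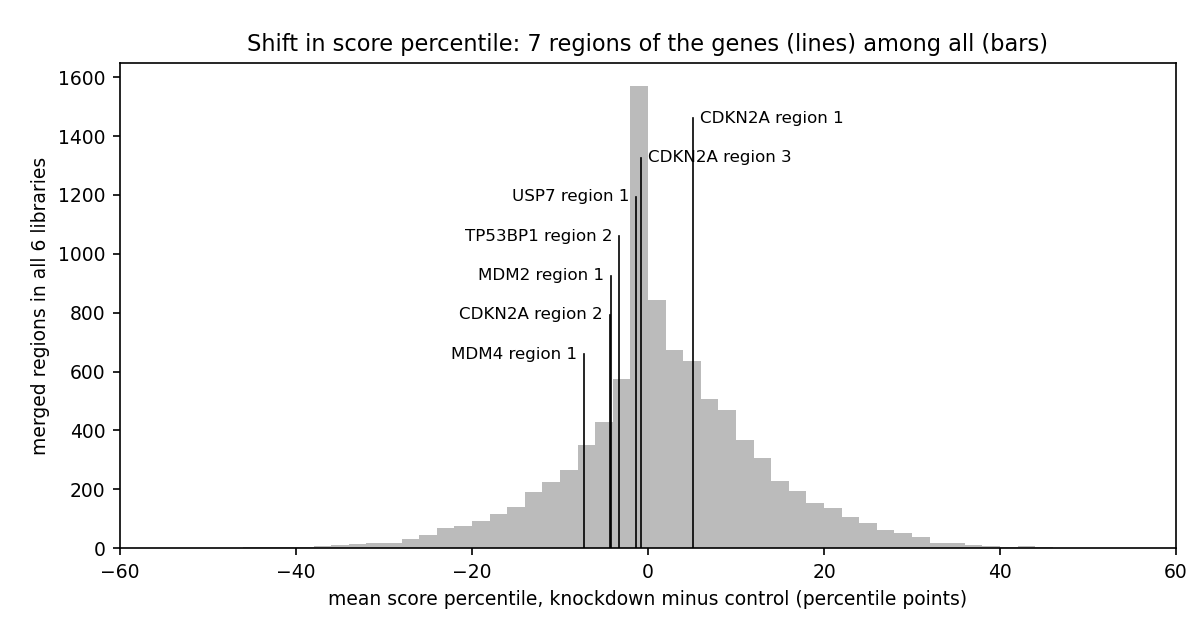
Shift in mean score percentile, knockdown minus control (x axis, percentile points), with grey bars for the number of merged regions listed in all 6 libraries (y axis) and black lines, drawn to differing heights only to place their labels, for the 7 regions of the 8 genes. The shifts run from -7.27 for MDM4 to 5.15 for CDKN2A region 1 and lie within the bulk of all regions; the tall bar just below 0 holds many regions tied at a score of 3100.

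Ordered by the mean of the highest percentile in each library, USP7 (94.0) and CDKN2A (92) stood first, followed by MDM2 (53.6), CDKN1A (48.2), TP53BP1 (47.6), TP53BP2 (37.6, over 5 libraries), MDM4 (34.4) and PPM1D (25.3, over 3 libraries). USP7 and CDKN2A overlapped each other and stood above the highest value of every other gene, 75.6 in CDKN1A. From MDM2 to PPM1D the ranges of neighbors overlapped. Among genes with a peak in all 6 libraries, 86.2% had a lower mean than USP7 and 81.3% a lower mean than CDKN2A, but 22.5% a lower mean than MDM2. A percentile compares peaks of a library and depends on RNA level as well as on acetylation. The highest percentile of a gene can also rise with its number of peaks, which was 3 for CDKN2A and 1 for MDM4 in every library.

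Several genes elsewhere in the genome had the same 6 peak numbers as a member. By the smallest summed difference in highest percentile, the closest were KDELR3 to MDM2 among 32 genes (64.3 percentile points over 6 libraries), ENO2 to USP7 among 20 (43.4), GEMIN6 to TP53BP1 among 8 (74.3) and SEC61B to PPM1D among 23 (24.5 over 3 libraries). ADSS1 was the single match of TP53BP2 (63.7 over 5 libraries). No gene matched CDKN1A, and USP32 came nearest with a difference of 1 peak in 1 library. The constant numbers of MDM4 and CDKN2A were shared by 636 and 27 genes.

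The wider p53 pathway showed few group differences. Of 52 further pathway genes with a known strand, 42 had a peak and 24 had one in all 6 libraries. Over all 15843 genes with a strand, 62.5% had a peak and 31% had one in all 6. Whether the listed genes differ from all genes in this was not tested. SAT1, which acetylates polyamines and is a p53 target, was the single gene among the 52 with non-overlapping peak numbers. It had 0 peaks in each control and 1 in each knockdown library (exact permutation test, p = 0.1, adjusted p = 1.0), the same numbers as PPM1D. The scores differed, since SAT1 ranked 2 among the 39 genes with a peak in all knockdown and no control libraries. Its mean percentile was 84.3 and its lowest 75.2, where PPM1D ranked 24 with a mean of 25.3. A count of 1 among the 42 genes with a peak is near the share over all genes, 1.58%. SAT1 was also the 1 gene of the 42 with a peak in all knockdown and no control libraries, which held for 0.394% of all genes. Both criteria count the same SAT1 peaks, and the lists were chosen with earlier results of these data known. The median difference in peak number over the 52 genes was 0, and none was called with the higher number in control. By role, 2 of 4 kinases upstream of p53, 15 of 17 cofactors and other regulators, 10 of 11 cell cycle and repair targets, 8 of 10 apoptosis targets and 7 of 10 metabolism and stress targets had a peak. The genes with a strand and no peak in any library were the DNA damage kinases ATM and ATR, the death genes BAX and FAS, and RPL11, TP63, CCNG1, GLS2, SPATA18 and TP53I11. Of 12 pathway genes without a strand in the tables used, counted on either strand, 11 had a peak and none was called.

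The promoter windows of the 8 genes, 14 in all and each of 300 bases from 250 before a RefSeq start, were searched on both strands for the p53 half-site consensus. None of the 14 held a match, the windows at the downstream MDM2 starts included, against 6.21% of 22199 windows over all genes. The paired MDM2 starts give windows that overlap almost fully, and sites outside the windows or differing from the consensus were not searched. The lack of a match in 14 windows therefore does not show that these genes lack p53 sites. The GC content of the 14 windows ran from 45.7% to 81.3%, both in windows of USP7, beside a median of 62.3% over all windows.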

How the data were processed

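The authors deposited 1 list of mRNA peaks per immunoprecipitated library, with a score of unstated scale. Per the labels the build is GRCh38; the aligner and peak caller are not given in the sources used here. RNA had been fragmented and pulled down with an ac4C kit. Groups came from the sample labels. The 6 input samples were not used here.

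Peaks were assigned by midpoint to same-strand gene spans of RefSeq GRCh38.p14, with strand taken from the promoter table. Peaks of any library that shared at least 1 base on the same strand were merged into regions. A percentile is the rank of a score within its library, ties at their average rank. Peak numbers and percentiles were compared by two-sided exact permutation tests over libraries, with Benjamini-Hochberg adjustment over all genes with a peak or all regions in all 6 libraries. All 8 members are named, with each pathway gene that was called and, for each member whose number varied, the 1 gene most like it. Members, lists and tests were chosen with earlier results of these data known. Exon, coding and UTR annotation was not used here, so regions are placed only relative to transcript starts. The code was tested on simulated data. Alternatives were the upper 50% of scores, equal list lengths, overlap in place of the midpoint, either strand, peaks in 1 gene only, at least 50% of a region covered, a difference of at least 2 libraries, strict ranks of ties, leaving out each library in turn, and a block for the replicate number. Python 3.11.15, numpy 2.4.6, pandas 2.3.3 and scipy 1.17.1 were used.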

Additional observations from a re-analysis of the deposited data

How the results depend on the processing

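The PPM1D call depended on weak peaks. With the upper 50% of scores in each library, 0 genes and 0 regions were called and the difference in peaks over the 8 genes fell from 3.0 to 0.0 per library. With 17877 peaks in each list the counts stayed at 1 gene and 1 region, but both were CDKN1A in place of PPM1D, and 2.47% of all genes and 1.17% of all regions were called in that setting in either direction. Placing absent peaks at percentile 0, added after the data were seen, gave 2 of 14 member regions by rank, both higher in knockdown. Of all 19857 regions in that setting, those listed in at least 3 libraries, 8.07% were called higher in knockdown and 4.01% higher in control. The call on PPM1D, which has no control peak, is fixed by the setting and is no further evidence. The other was CDKN1A region 2, whose value in control replicate 1 is likewise set by that rule. Leaving out 1 library at a time gave 1 to 2 genes with non-overlapping numbers, the second being CDKN1A without control replicate 2, while the share of all genes called rose from 2.27% to between 4.63% and 6.69%. By rank it gave 0 to 1 regions. The shares that follow are over regions listed in all remaining libraries. That region was CDKN1A region 2, higher in knockdown, without control replicate 1 (10.3% of 10277 such regions). It was MDM4, higher in control, without control replicate 2 (5.77%). It was USP7, higher in control although tied at 3100 in all 6 libraries, without control replicate 3 (18.3%) or knockdown replicate 2 (15.5%). The difference in peaks ran from 2.0 to 4.5. No result reversed. The labels do not say whether samples with the same replicate number were paired. The correlations of their percentile deviations were 0.0018, -0.0555 and 0.0623 for replicates 1, 2 and 3. They cannot decide the pairing, because a percentile within a library carries no shift common to that library. When replicate number was a block, the difference stayed at 3.0 and PPM1D had p = 0.25, the smallest that an exact sign-flip permutation of 3 pairs allows. Depth is unknown for every library, and neither RNA level nor stoichiometry of ac4C can be read from these lists.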
